A study of Rattus norvegicus with 9 samples.

Results

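Gdf15 and 9 other genes of the integrated stress response were followed in rat primary chondrocytes, the cells of cartilage, given the inflammatory cytokine interleukin-1β (IL-1β) with or without dermal fibroblasts nearby. The 10 genes were picked by symbol among the 17588 genes of the deposited expression table: Gdf15, Trib3, Atf4, Atf5, Ddit3, Asns, Chac1, Sesn2, Ppp1r15a and Psat1. They were assembled because Gdf15 and Trib3 were lower under co-culture than in control cells, so that contrast is described below without a test. The p-values are given for the other 8 genes in the 2 remaining comparisons, and none for Gdf15 or Trib3, because each of those comparisons shares libraries with the one that chose the set. All 10 genes passed the filter on low values, as did 11732 genes of the table in all.

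The 9 libraries fell into 3 groups of 3. In the co-culture group, wild-type chondrocytes were given IL-1β and then kept in a transwell with dermal fibroblasts in the upper chamber. In the IL-1β group, wild-type chondrocytes were stimulated in normal culture, and in the control group they were in normal culture without the cytokine. All libraries hold chondrocyte RNA, from the lower chamber in the co-culture. The cytokine dose, the durations and the number of animals behind a library are not stated in the labels. Levels are FPKM, fragments scaled to transcript length and library total, so levels of different genes can be compared. Means are given ± SD with n = 3 libraries per group. Whether replicates came from separate cultures or animals is not stated, so a p-value here reflects only how far these libraries spread, and that spread may be technical. In bulk RNA, fewer cells of a kind and less RNA per cell cannot be told apart.

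The integrated stress response begins when any of a few kinases, each sensing a different stress, phosphorylates the translation initiation factor eIF2. General protein synthesis then slows, while the mRNAs of the transcription factors ATF4 and ATF5 are translated more, so the mRNA level of either gene does not by itself report the activity of its protein. ATF4 switches on genes for amino acid synthesis and uptake, the factor CHOP (Ddit3) and feedback proteins that restrain the response. GDF15 is a secreted hormone of the transforming growth factor-β superfamily whose gene also answers to other stress pathways, and whose receptor GFRAL is known from the hindbrain.

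Promoters were searched for 3 motifs, because the best known site of ATF4 is the composite C/EBP-ATF response element. RefSeq promoter windows (GRCr8, 250 bases before to 50 after each start) matched all 10 genes, with 2 starts for Gdf15. The composite element was searched as TGATGNAA on both strands, whose reverse complement is TTNCATCA. It stood in the windows of 2 of the 10 genes, Chac1 and Trib3, and in 3.98% of all 33469 windows. The cyclic AMP response element TGACGTCA, its own reverse complement, stood in that of Ppp1r15a and in 1.83% of all windows. The endoplasmic reticulum stress element, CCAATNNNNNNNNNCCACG on either strand, stood in none of them and in 0.0657% of all windows. The matches are printed 5′ to 3′ on the gene's strand with 10 bases on each side, and capitals mark the motif. They describe letters in a window, not binding.
Chac1, chr3:126795954-126795981, + strand: ttctccgccgTTGCATCActcctgctag
Trib3, chr3:161275537-161275564, - strand: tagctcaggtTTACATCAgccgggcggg
Ppp1r15a, chr1:105139645-105139672, - strand: gcctctccggTGACGTCAgcatagcgct
The Chac1 match begins 167 bases before the start of the gene, the Trib3 match 21 bases before it and the Ppp1r15a match 66 bases before it.

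Gdf15 was high in 1 group alone. It stood at 0.73, 1.49 and 1.22 FPKM in the co-culture libraries, at 11.1, 9.44 and 9.15 FPKM in the IL-1β libraries and at 1.96, 2.76 and 3.16 FPKM in the control libraries. No library of 1 group overlapped those of another, and the order was co-culture, control, IL-1β. The means were 1.15 ± 0.385 FPKM in co-culture, 9.89 ± 1.03 FPKM with IL-1β and 2.63 ± 0.611 FPKM in control. With IL-1β the mean was thus 3.76-fold that of control, and 165 of the 11732 tested genes had a log2 change at least as large as its 1.60. Under co-culture it was 8.62-fold lower than with IL-1β alone, and 9 tested genes, Gdf15 included, had a log2 change of its -2.35 or lower. It was also 2.29-fold lower than in control, the difference that put it in the set. Gdf15 is a low gene outside the IL-1β group, so its log2 change depends on the pseudocount added before the log. Co-culture against IL-1β came to -3.05 with a pseudocount of 0.1 and -1.28 with one of 5.

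Trib3, a pseudokinase that feeds back on ATF4 and CHOP and binds the kinase AKT, was lowest under co-culture and highest in control. It stood at 14.7, 13.55 and 12.6 FPKM in the co-culture libraries, 16.6, 18 and 14.8 FPKM in the IL-1β libraries and 25.8, 27.6 and 28.2 FPKM in the control libraries. The control libraries lay well above the rest, whereas the highest co-culture library lay at 14.73 FPKM, just under the lowest IL-1β library at 14.8 FPKM. The means were 13.6 ± 1.07 FPKM in co-culture, 16.5 ± 1.6 FPKM with IL-1β and 27.2 ± 1.22 FPKM in control. The co-culture mean was 49.9% below that of control, and the IL-1β mean 39.5% below it. Unlike Gdf15, Trib3 was lower in the IL-1β libraries than in control.

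**Figure D1:**
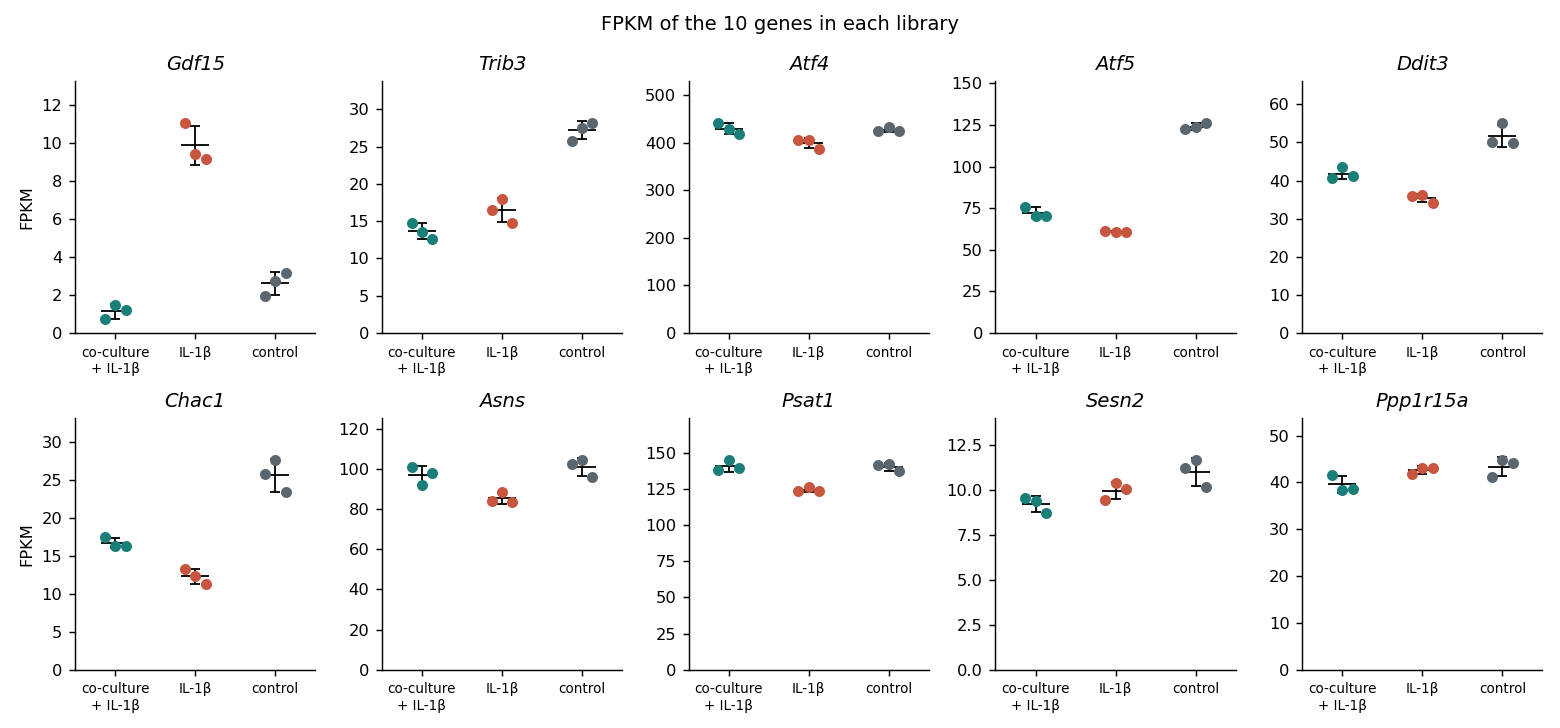
FPKM of each of the 10 genes (linear axis from 0, own scale per gene) in the 3 libraries of co-culture with IL-1β, IL-1β alone and control. Points are libraries, the short horizontal bar is the group mean and the whiskers are ± 1 SD. Gdf15 was high in the IL-1β libraries, between 9.15 and 11.1 FPKM, whereas Atf5 and Chac1 were highest in control and lowest with IL-1β.

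IL-1β was set against control to see what the cytokine did to these genes. Of the 8 tested, 6 fell, 0 rose and 2 did not pass. Over all genes tested, 20.2% were called lower and 26.5% higher at a limma adjusted p under 0.05 (Benjamini-Hochberg, two-sided). The median log2 change was -0.20 over the 8 genes and 0.02 over all genes tested. The genes were chosen with earlier results of these data known, so their share says nothing by itself about the pathway. Co-culture was set against IL-1β to see what differed in stimulated cells kept with fibroblasts. The IL-1β cells were in normal culture, and no group was in a transwell without fibroblasts. Fibroblasts, the transwell and any difference in time after the cytokine thus cannot be told apart. Here 6 of the 8 rose, 0 fell and 2 did not pass. The background was 11.9% called higher and 10.1% lower. The median log2 change was 0.18 over the 8 genes, beside 0.02 over all genes tested. Counted by libraries that do not overlap, 0 of these 8 genes were higher and 6 lower with IL-1β than in control. The shares over all tested genes were 31.3% and 25.0%. Under co-culture against IL-1β 6 of the 8 were higher and 1 lower, beside 21.2% and 16.5%. Gdf15 and Trib3, which chose the set, are left out of these counts. Both comparisons use the same IL-1β libraries, so the values below stand side by side and their opposite signs are not independent.

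Among the transcription factors, Atf5 and Ddit3 fell clearly with IL-1β and Atf4 barely moved. Atf4 was by far the most abundant of the 10 genes. It stood at 441, 429 and 418 FPKM in the co-culture libraries, 406, 406 and 387 FPKM in the IL-1β libraries and 424, 432 and 424 FPKM in the control libraries. The IL-1β libraries lay below both other groups, by a few percent. Atf4 was 6.4% lower with IL-1β than in control (log2 change -0.10 ± 0.03 SE, limma adjusted p = 0.0228) and 7.56% higher under co-culture than with IL-1β (0.10 ± 0.03 SE, limma adjusted p = 0.0298). The first call ended without control replicate 2 (limma adjusted p = 0.0743), without IL-1β replicate 3 (0.0914) and without the variance trend (0.0601). The second ended in 7 settings (limma adjusted p between 0.0676 and 0.143). Among them were quantile normalization (0.143) and median-of-ratios scaling (0.0876). Leaving out IL-1β replicate 3, or co-culture replicate 1 or 2, ended it too.

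Atf5, a relative of Atf4 that is linked to the mitochondrial stress response, stood at 76.0, 70.5 and 70.3 FPKM in the co-culture libraries. It stood at 61.2, 60.9 and 60.9 FPKM in the IL-1β libraries and at 122, 124 and 126 FPKM in the control libraries. The 3 groups did not overlap, and the IL-1β libraries were almost identical. Atf5 fell by 50.8% with IL-1β against control (log2 change -1.01 ± 0.03 SE, limma adjusted p = 5.03e-09), and 164 tested genes, Atf5 included, had a log2 change as low or lower. It was 18.5% higher under co-culture than with IL-1β alone (0.24 ± 0.03 SE, limma adjusted p = 0.000775), and under co-culture it averaged 72.3 ± 3.26 FPKM against 124 ± 1.9 FPKM in control.

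Ddit3 encodes CHOP, a factor that promotes cell death when stress lasts. It stood at 40.7, 43.5 and 41.3 FPKM in the co-culture libraries, 35.85, 36.1 and 34.1 FPKM in the IL-1β libraries and 50.15, 55.1 and 49.9 FPKM in the control libraries. The groups again did not overlap, with co-culture between the other two. Ddit3 fell by 31.6% with IL-1β (log2 change -0.53 ± 0.05 SE, limma adjusted p = 6.82e-06) and was 18.3% higher under co-culture than with IL-1β (0.24 ± 0.05 SE, limma adjusted p = 0.00525).

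Among the enzymes downstream, Chac1 moved most in both comparisons. It encodes a glutathione-degrading enzyme and carries the composite element printed above. Chac1 stood at 17.5, 16.3 and 16.35 FPKM in the co-culture libraries, 13.2, 12.3 and 11.3 FPKM in the IL-1β libraries and 25.7, 27.6 and 23.4 FPKM in the control libraries. It fell by 51.9% with IL-1β against control (log2 change -0.999 ± 0.07 SE, limma adjusted p = 1.28e-06). Under co-culture it was 35.9% higher than with IL-1β (0.42 ± 0.07 SE, limma adjusted p = 0.0021). Trib3 is the other gene with this element, and its log2 change under co-culture against IL-1β was -0.25, given without a test. Whether the element bears on the level of either gene was not tested.

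The amino acid enzymes moved less. Asns, which makes asparagine, stood at 101, 91.7 and 97.7 FPKM in the co-culture libraries, 84.0, 88.2 and 83.5 FPKM in the IL-1β libraries and 102, 104 and 95.7 FPKM in the control libraries. Its co-culture and control libraries overlapped, and the IL-1β libraries lay below both. Asns fell by 15.5% with IL-1β (log2 change -0.24 ± 0.04 SE, limma adjusted p = 0.00151) and was 13.5% higher under co-culture than with IL-1β (0.18 ± 0.04 SE, limma adjusted p = 0.017). The second call ended without IL-1β replicate 1 or 3, or without co-culture replicate 1 or 3 (limma adjusted p between 0.0515 and 0.0602). Psat1, an enzyme of serine synthesis, stood at 138, 145 and 139 FPKM in the co-culture libraries, 123, 126 and 124 FPKM in the IL-1β libraries and 141, 142 and 137 FPKM in the control libraries. It showed the same arrangement as Asns. Psat1 fell by 11.2% with IL-1β (-0.17 ± 0.03 SE, limma adjusted p = 0.000761) and was 13.1% higher under co-culture than with IL-1β (0.18 ± 0.03 SE, limma adjusted p = 0.00181).

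The feedback genes Sesn2 and Ppp1r15a passed in neither comparison. Sesn2, which encodes an inhibitor of the growth kinase complex mTORC1, stood at 9.56, 9.39 and 8.74 FPKM in the co-culture libraries, 9.44, 10.4 and 10.05 FPKM in the IL-1β libraries and 11.2, 11.7 and 10.1 FPKM in the control libraries. Neighbouring groups overlapped. The log2 change was -0.13 with IL-1β against control (95% interval -0.27 to 0.00325, limma adjusted p = 0.102) and -0.10 under co-culture against IL-1β (-0.23 to 0.04, limma adjusted p = 0.282). The first passed without control replicate 3 (limma adjusted p = 0.0342) and under 2 other scalings (0.023 and 0.0339). Ppp1r15a (GADD34), which recruits a phosphatase to reverse eIF2 phosphorylation, stood at 41.7, 38.35 and 38.7 FPKM in the co-culture libraries, 41.8, 43.2 and 43.0 FPKM in the IL-1β libraries and 41.2, 44.85 and 44.2 FPKM in the control libraries. Its co-culture libraries reached up to just under the lowest IL-1β library. The log2 change was -0.02 with IL-1β (-0.12 to 0.07, limma adjusted p = 0.692) and -0.11 under co-culture against IL-1β (-0.20 to -0.01, limma adjusted p = 0.108). The second passed without co-culture replicate 1 (limma adjusted p = 0.0377).

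**Figure D2:**
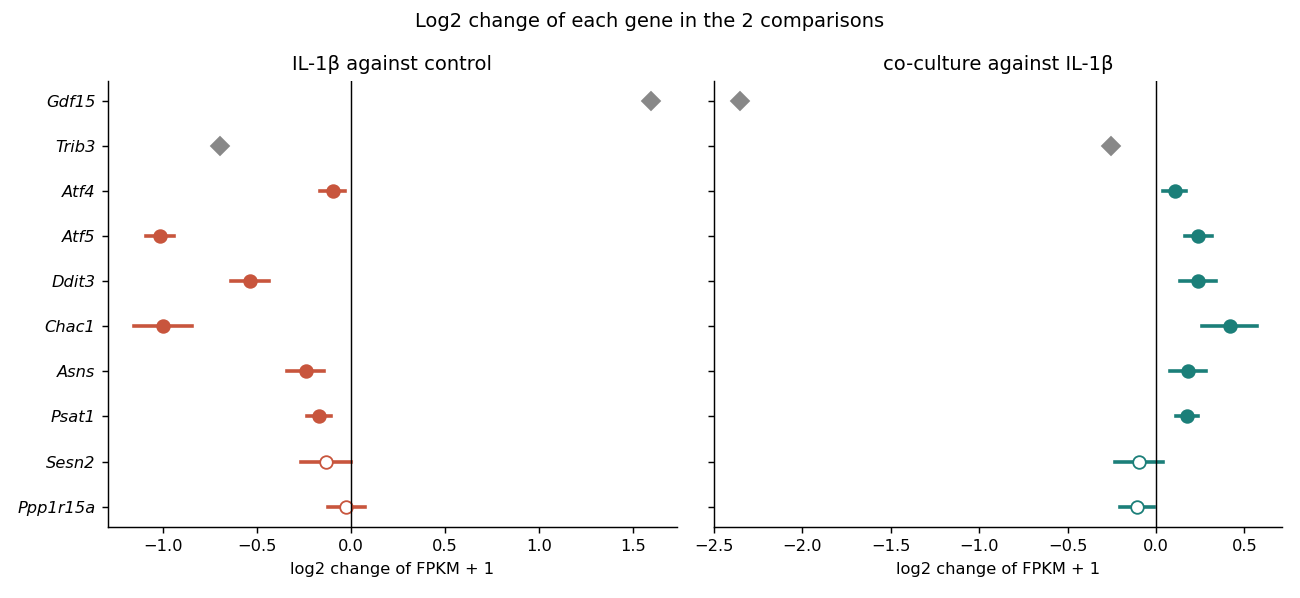
Log2 change of FPKM + 1 for each gene, left for IL-1β against control and right for co-culture against IL-1β. Circles with bars are limma estimates with 95% intervals (filled at an adjusted p under 0.05, open otherwise), and grey diamonds are estimates of Gdf15 and Trib3, given without a test. Atf5 and Chac1 lie near -1 on the left, at -1.01 and -0.999, and Gdf15 lies apart at 1.60 on the left and -2.35 on the right.

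Set against control, the 10 genes under co-culture fell on either side of the IL-1β level. As a description, the mean of Atf5 under co-culture had moved 17.8% of the way from its IL-1β mean to its control mean. The share was 33.2% for Chac1, 39.5% for Ddit3 and 74.0% for Asns. For Psat1 and Atf4 it was 104% and 110%, and both stood at the control level, at 141 ± 3.82 against 140 ± 2.64 FPKM for Psat1 and 430 ± 11.5 against 427 ± 4.87 FPKM for Atf4. Trib3, Sesn2 and Ppp1r15a, whose means were lower with IL-1β than in control, had still lower means under co-culture, and Gdf15, higher with IL-1β, went past its control mean. The genes that were furthest down with IL-1β, Atf5 and Chac1, were thus the furthest from control among these 6. Of the 10 genes, 8 had a lower mean under co-culture than in control, 6 of them with no overlap between libraries and 0 higher without overlap. Among all tested genes 17.0% were lower and 29.6% higher without overlap. That contrast chose the set, so nothing is read from these counts. The 2 with a higher mean, Atf4 and Psat1, turned lower under all 3 other scalings.

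**Figure D3:**
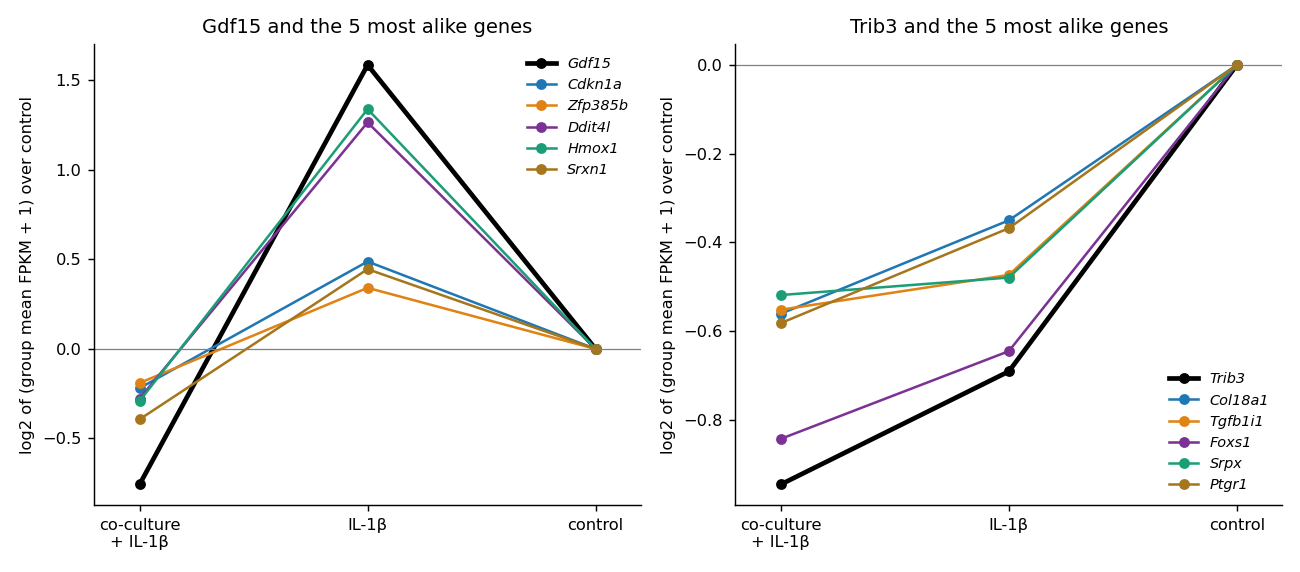
Group means of Gdf15 (left, black) and Trib3 (right, black) and of the 5 genes whose levels over the 9 libraries were most like each, as log2 of (mean FPKM + 1) over that of control. Lines join the groups of 1 gene. Gdf15 is highest with IL-1β and its co-culture value lies below control, as do those of its 5 nearest genes, whereas Trib3 and its 5 nearest genes are lowest under co-culture and highest in control. The nearest genes were picked for this likeness.

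The genes whose levels were most like those of Gdf15 were sought among 1160 others that averaged at least 5 FPKM in 1 group and spanned at least 0.5 log2 between group means. By Pearson's r of log2(FPKM + 1) over the 9 libraries they were Cdkn1a, Zfp385b, Ddit4l, Hmox1 and Srxn1, at r between 0.96 and 0.981. The libraries fall into 3 groups, so these r values mostly reflect group means. Hmox1, heme oxygenase, averaged 116 ± 3.96 FPKM in co-culture, 360 ± 16.1 FPKM with IL-1β and 142 ± 6.79 FPKM in control. Ddit4l averaged 6.07 ± 0.263, 19.6 ± 1.17 and 7.56 ± 1.24 FPKM in co-culture, IL-1β and control. Cdkn1a, which encodes the cell-cycle inhibitor p21, averaged 120 ± 3.41, 196 ± 5.07 and 140 ± 1.97 FPKM in the same order of groups. All 5 had the order of Gdf15, co-culture below control below IL-1β, with a smaller span than Gdf15 on the log2 scale. They were picked for likeness over these same libraries, so the shared order follows largely from that choice. For Trib3 the 5 were Col18a1, Tgfb1i1, Foxs1, Srpx and Ptgr1, at r between 0.965 and 0.98. None of the other 8 stress response genes could appear, since these were left out of the search.

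The rest of the pathway was read from lists, each without the 10 genes above. The list counts are to be read beside the shares of all tested genes. With IL-1β against control 20.2% were called lower and 26.5% higher. Under co-culture against IL-1β 10.1% were called lower and 11.9% higher. Most synthesis genes were lower with IL-1β than in control, and many were higher under co-culture than with IL-1β. Of 13 tested amino acid synthesis and one-carbon genes, 9 fell and 3 rose with IL-1β against control (median log2 change -0.17). Under co-culture against IL-1β 7 of the 13 rose and 0 fell (median 0.11). Phgdh, the first enzyme of serine synthesis, averaged 92.8 ± 2.1 FPKM in co-culture, 84.8 ± 1.17 FPKM with IL-1β and 99.8 ± 2.34 FPKM in control. It passed in both comparisons (limma adjusted p = 0.000106 for IL-1β against control and 0.0113 for co-culture against IL-1β). The mitochondrial folate enzyme Mthfd2 also passed in both, at 93.8 ± 1.67, 81.9 ± 3.04 and 99.4 ± 2.2 FPKM in co-culture, IL-1β and control. Aldh1l2, a mitochondrial folate enzyme, averaged 32.6 ± 0.524, 29.7 ± 1.12 and 38.2 ± 0.23 FPKM in the same groups. Its rise under co-culture against IL-1β (limma adjusted p = 0.0193) ended in 4 settings (0.0507 to 0.0701), among them without IL-1β replicate 1 or 3. The 3 that rose with IL-1β were Shmt2, Mthfd1l and Got1. With libraries rescaled to a common sum that call of Mthfd1l ended (limma adjusted p = 0.0691). Mthfd1l was also called higher under co-culture against IL-1β (limma adjusted p = 0.0334). That call ended in 8 of 19 other settings (0.0503 to 0.103). Shmt2 averaged 207 ± 3.13 FPKM with IL-1β against 173 ± 2.38 FPKM in control. Got1 averaged 53.03 ± 2.36 FPKM with IL-1β against 39.6 ± 2.51 FPKM in control.

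Amino acid transporters split. Of 10 tested, 6 fell and 2 rose with IL-1β (median -0.17), and under co-culture against IL-1β 4 rose and 1 fell (median 0.10). With the replicate number as a block, 2 rose and 1 fell in the second comparison. Slc7a5, the leucine importer, averaged 70.3 ± 1.62 FPKM in co-culture, 60.5 ± 1.66 FPKM with IL-1β and 70.5 ± 1.01 FPKM in control. Slc7a3, an arginine transporter, was 1.93 ± 0.276, 1.68 ± 0.17 and 4.98 ± 0.228 FPKM in the same order of groups. Slc7a11, the cystine importer that supplies glutathione synthesis, went the other way from Slc7a5. It averaged 1.6 ± 0.0603 FPKM in co-culture, 3.05 ± 0.17 FPKM with IL-1β and 1.79 ± 0.0569 FPKM in control. Slc7a11 rose with IL-1β (log2 change 0.54, limma adjusted p = 7.59e-05) and was the 1 transporter that fell under co-culture (-0.64, limma adjusted p = 9.71e-05). Slc1a5, a glutamine transporter, was the other that rose with IL-1β, at 43.8 ± 0.435 FPKM with IL-1β against 36.0 ± 1.53 FPKM in control.

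Aminoacyl-tRNA synthetases, which charge tRNAs with amino acids and include many ATF4 targets, were counted together with the tRNA exporter Xpot. Of 20 tested, 9 fell and 4 rose with IL-1β against control (median -0.06), with 2 rises rather than 4 under each of 2 other scalings. Under co-culture against IL-1β 12 of the 20 rose and 0 fell (median 0.11). Seryl-tRNA synthetase (Sars) averaged 184 ± 4.71 FPKM in co-culture, 159 ± 0.501 FPKM with IL-1β and 196 ± 6.65 FPKM in control. Alanyl-tRNA synthetase (Aars) averaged 116 ± 1.53, 102 ± 2.68 and 119 ± 3.42 FPKM in the same order. Glycyl-tRNA synthetase (Gars) averaged 174 ± 2.12, 161 ± 2.27 and 182 ± 1.72 FPKM and tyrosyl-tRNA synthetase (Yars) 102 ± 3.85, 87.9 ± 0.42 and 97.0 ± 2.16 FPKM in co-culture, IL-1β and control. Sars, Aars, Gars and Yars all fell with IL-1β and rose under co-culture against IL-1β, with log2 changes of at most 0.30 in size.

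**Figure D4:**
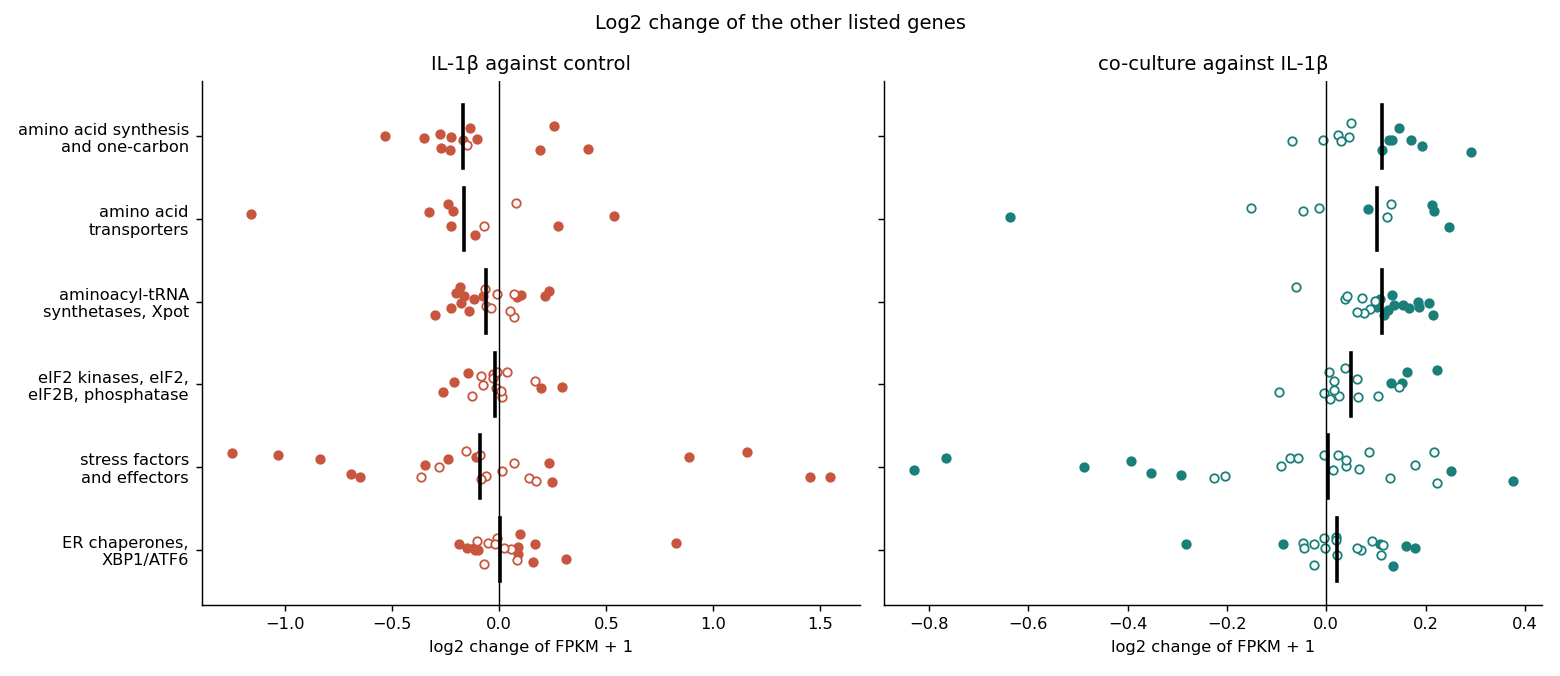
Log2 change of FPKM + 1 of every tested gene of the 6 lists, without the 10 genes, left for IL-1β against control and right for co-culture against IL-1β. Each circle is a gene (filled at a limma adjusted p under 0.05, open otherwise, vertical scatter within a list is for legibility) and the black bars are list medians. Synthesis genes, transporters and synthetases have medians of -0.17, -0.17 and -0.06 on the left and 0.11, 0.10 and 0.11 on the right.

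Genes for the machinery at the top of the response had medians near 0. Of 16 tested genes for the eIF2 kinases, eIF2, its exchange factor eIF2B and its phosphatase, 3 fell and 2 rose with IL-1β, and 4 rose and 0 fell under co-culture against IL-1β (medians -0.02 and 0.05). With libraries rescaled to a common sum 6 fell and 1 rose with IL-1β. Over all tested genes that scaling took those called lower from 2370 to 3188 and those called higher from 3109 to 2249. Eif2s2, the β subunit of eIF2, averaged 315 ± 3.33 FPKM in co-culture, 270 ± 5.3 FPKM with IL-1β and 299 ± 7.3 FPKM in control. Eif2s1, the subunit that the kinases phosphorylate, averaged 188 ± 4.79, 171 ± 3.74 and 170 ± 2.21 FPKM in the same groups, and passed under co-culture against IL-1β alone of the pair of comparisons (limma adjusted p = 0.00846). Ppp1ca, a catalytic subunit of the phosphatase, averaged 341 ± 11.1, 304 ± 1.76 and 352 ± 11 FPKM. The kinase genes Eif2ak1, Eif2ak3 and Eif2ak4 passed in neither comparison. Eif2ak2, which encodes the double-stranded RNA sensor PKR, averaged 14.4 ± 0.265 FPKM with IL-1β against 11.6 ± 0.364 FPKM in control (limma adjusted p = 0.00365). Ppp1r15b, the constitutive counterpart of Ppp1r15a, averaged 16.7 ± 0.299 FPKM in co-culture, 14.9 ± 0.206 FPKM with IL-1β and 18.1 ± 0.233 FPKM in control, and it passed where Ppp1r15a did not (limma adjusted p = 0.000127 for IL-1β against control and 0.00988 for co-culture against IL-1β). The difference between the pair was not tested.

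Transcription factors and effectors of the response moved in both directions. Of 24 tested, 8 fell and 6 rose with IL-1β (median -0.09), and 6 fell and 2 rose under co-culture against IL-1β (median 0.00). The 6 and 2 that rose are near the shares of all tested genes called higher, 26.5% and 11.9%. The shares called lower, beside the 8 and 6 that fell, were 20.2% and 10.1%. With libraries rescaled to a common sum 12 fell and 5 rose with IL-1β. Over all tested genes that scaling took those called lower from 2370 to 3188. Nupr1, a stress-induced chromatin protein, fell to 87.0 ± 0.754 FPKM with IL-1β against 156 ± 3.53 FPKM in control, and averaged 89.5 ± 4.69 FPKM under co-culture (limma adjusted p = 0.504 against IL-1β). Ddit4 (REDD1), an mTORC1 inhibitor, averaged 33.1 ± 0.8 FPKM in co-culture, 59.6 ± 1.9 FPKM with IL-1β and 21.2 ± 0.804 FPKM in control. Ero1a averaged 77.95 ± 2.45, 99.75 ± 2.05 and 53.6 ± 0.968 FPKM in co-culture, IL-1β and control, and Ndrg1 39.9 ± 3.03, 52.6 ± 1.74 and 23.1 ± 0.492 FPKM. Ddit4, Ero1a and Ndrg1 thus had the same order of groups, and all 3 are also known as hypoxia-responsive genes. Under co-culture the 6 that fell were Ddit4, Ero1a, Ndrg1, Cebpb, Bbc3 and Sqstm1, and the 2 that rose were Fos and Herpud1. The call of Fos ended without IL-1β replicate 3 and without co-culture replicate 1 or 3 (limma adjusted p between 0.0509 and 0.0567). The call of Bbc3 ended in 11 of 18 other settings for IL-1β against control and in 6 of 18 for co-culture against IL-1β.

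Close relatives of the 10 genes were read beside them. Trib2 fell to 10.4 ± 0.631 FPKM with IL-1β against 17.4 ± 0.201 FPKM in control (limma adjusted p = 6.69e-06), as Trib3 was lower there, whereas Trib1 averaged 6.15 ± 0.535 FPKM with IL-1β and 6.58 ± 0.12 FPKM in control (0.286). Sesn3 fell to 4.81 ± 0.33 FPKM with IL-1β against 10.9 ± 0.794 FPKM in control (limma adjusted p = 5.6e-07). Sesn1 averaged 4.15 ± 0.231 FPKM with IL-1β and 4.37 ± 0.188 FPKM in control (0.463). Chac2 averaged 10.6 ± 1.71, 8.93 ± 1.17 and 11.0 ± 0.0896 FPKM in co-culture, IL-1β and control, and did not pass in either comparison (limma adjusted p = 0.059 and 0.192). For IL-1β against control Chac2 passed in 8 of 19 other settings, all 3 other scalings included (limma adjusted p between 0.0218 and 0.0392), and for co-culture against IL-1β in 1, without co-culture replicate 1 (0.0384). Atf3 averaged 1.48 ± 0.259, 1.9 ± 0.326 and 2.76 ± 0.725 FPKM in the same groups and did not pass either (limma adjusted p = 0.0703 and 0.317). For IL-1β against control Atf3 passed in 3 of 18 other settings (limma adjusted p between 0.00834 and 0.0377). Psph, an enzyme of serine synthesis like Psat1, averaged 33.8 ± 0.906, 27.4 ± 1.49 and 30.6 ± 2.63 FPKM in co-culture, IL-1β and control. It rose under co-culture against IL-1β (limma adjusted p = 0.00738) and did not pass for IL-1β against control (0.0661). In the latter Psph passed in 5 of 19 other settings, all 3 other scalings included (limma adjusted p between 0.0082 and 0.0418). Of the receptor genes of GDF15, the co-receptor Ret did not exceed 0.36 FPKM in any library, and no gene of the deposited expression table bears the symbol Gfral.

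Chaperone genes of the endoplasmic reticulum, which answer to the other arms of the unfolded protein response, showed no common direction. Of 20 tested, 7 rose and 5 fell with IL-1β against control (median 0.01), and 4 rose and 2 fell under co-culture against IL-1β (median 0.02). The shares of all tested genes were 26.5% higher and 20.2% lower in the first comparison and 11.9% and 10.1% in the second. With libraries rescaled to a common sum the IL-1β split was 4 higher and 8 lower. Over all tested genes that scaling took those called higher from 3109 to 2249 and those called lower from 2370 to 3188. Sdf2l1, which had the smallest p of the list, averaged 32.3 ± 1.95 FPKM in co-culture, 39.6 ± 1.76 FPKM with IL-1β and 21.9 ± 1.53 FPKM in control. It rose with IL-1β (log2 change 0.82, limma adjusted p = 1.91e-06) and fell under co-culture against IL-1β (-0.28, limma adjusted p = 0.0078). The disulfide isomerase Pdia6 averaged 512 ± 4.19, 544 ± 5.7 and 485 ± 4.93 FPKM in co-culture, IL-1β and control, and its fall under co-culture against IL-1β (limma adjusted p = 0.0191) ended in 4 settings (0.0515 to 0.0741), among them without IL-1β replicate 1 or 3. The chaperone Hyou1 averaged 83.15 ± 0.678, 84.6 ± 0.951 and 75.8 ± 0.87 FPKM in the same groups. Hspa5, the chaperone BiP, averaged 787 ± 11.3 FPKM in co-culture, 716 ± 1.35 FPKM with IL-1β and 723 ± 1.95 FPKM in control. Hspa5 rose under co-culture against IL-1β (log2 change 0.13, limma adjusted p = 0.00172).

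Some properties of the libraries moved with these results. FPKM summed to 809839 to 811665 in co-culture, 796262 to 832248 with IL-1β and 771058 to 782435 in control. With libraries rescaled to a common sum, 41.4% of the genes called for IL-1β against control were higher, against 56.7% without rescaling, and for co-culture against control 43.4% against 64.2%. None of the called members changed direction in any setting tried. The 8 chondrocyte markers were all expressed, with summed levels of 616 to 673 FPKM in co-culture, 437 to 457 FPKM with IL-1β and 1891 to 1975 FPKM in control. The 8 skeletal muscle markers summed to 366 to 410 FPKM in co-culture, 378 to 395 FPKM with IL-1β and 169 to 176 FPKM in control. The 8 macrophage markers summed to 19.1 to 21.5 FPKM in co-culture, 20.9 to 24.8 FPKM with IL-1β and 18.2 to 19.9 FPKM in control, with 3 below the filter and at most 0.42 FPKM. Of the 10 dermal fibroblast markers, 4 lay below the filter, at no more than 1.31 FPKM, and the other 6 did not move together. Dcn averaged 194 ± 9.49 FPKM in co-culture, 324 ± 10.8 FPKM with IL-1β and 32.4 ± 1.75 FPKM in control. Lum averaged 359 ± 36.6, 765 ± 26.1 and 87.8 ± 3.29 FPKM in co-culture, IL-1β and control, and both were thus above control with the cytokine whether or not fibroblasts were present. Col1a1 averaged 967 ± 37.5, 877 ± 32.1 and 1973 ± 55.7 FPKM in the same groups, and Col3a1 599 ± 23.7, 431 ± 6.95 and 1312 ± 13.1 FPKM. These collagens carry most of the summed level of the 10 markers, which was 2192 to 2247 FPKM in co-culture, 2488 to 2510 FPKM with IL-1β and 3412 to 3557 FPKM in control. The 4 adipocyte markers summed to 33.85 to 49.99 FPKM in co-culture, 158 to 186 FPKM with IL-1β and 14.5 to 21.4 FPKM in control, nearly all of it Fabp4. None of the 6 endothelial markers passed the filter, and of the 5 keratinocyte markers 1 did. The part of these shifts in the results was not tested.

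Gdf15, Atf5, Ddit3 and Sesn2 overlap a neighbour in the RefSeq table, and nothing in the labels tells if counting used strand, so their reads cannot be told apart from those of a neighbour on the opposite strand. Gdf15 overlaps Lrrc25, which averaged 0.153 ± 0.0551 FPKM in co-culture, 0.507 ± 0.129 FPKM with IL-1β and 0.203 ± 0.0551 FPKM in control, the same order as Gdf15 at a far lower level. Atf5 overlaps Nup62, at 73.7 ± 1.37, 71.0 ± 0.677 and 65.2 ± 2.21 FPKM in co-culture, IL-1β and control, and Il4i1, at no more than 0.81 FPKM in any library. Ddit3 overlaps Mars, at 90.3 ± 1.45, 87.9 ± 0.873 and 81.9 ± 2.09 FPKM in the same groups. Ddit3 also overlaps a predicted protein-coding gene on its own strand, whose reads strand would not separate, and Sesn2 a predicted long non-coding RNA on the opposite strand; neither was analysed here. Nup62 and Mars were higher with IL-1β than in control, whereas Atf5 and Ddit3 were lower. Psat1 has a listed pseudogene, Psat1-ps1, with which it could share reads.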

How the data were processed

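Per the file headers the authors deposited FPKM, 1 value per gene (17588) and library (9), made from oligo(dT)-captured mRNA per the labels' protocols. No aligner, counting tool or annotation is named in the labels. Per the submitters' processing notes the build is GRCm38, of mouse, whereas 93.2% of the gene identifiers are in the rat GRCr8 RefSeq table. The table holds no counts. Among genes under 1 FPKM with nearly equal nonzero values, 12 to 24 were usable in each other library. Their median level was 0.935 to 1.01 times that in control replicate 1. These genes were chosen for near-equal values, so this ratio does not measure relative depth. Absolute depth is unknown too, so no intervals from counts are given.

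Genes with at least 1 FPKM in at least 3 libraries were fitted with limma 3.58.1 (R 4.3.3) on log2(FPKM + 1), which understates changes of low genes, over all 9 libraries with a mean-variance trend. A gene was called at a Benjamini-Hochberg adjusted p under 0.05 over all tested genes. Folds and percent changes are ratios of mean FPKM. The fit was tested on simulated data. Figures used matplotlib 3.10.9.

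The members and lists were chosen with earlier results of these data known. Named were all members, up to 4 genes per list with the smallest p, relatives of the members, the 5 genes most like Gdf15 and Trib3, and, chosen after their values were seen, list genes behind a small count, the eIF2 kinase genes and dermal fibroblast markers. One further listed group of genes is not reported here. Older symbols were used where the table has them. The alternatives were other pseudocounts, filters and scalings, no trend, only the libraries compared, a replicate block and leaving out each library.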

Additional observations from a re-analysis of the deposited data

How the results depend on the processing

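Over 304 alternative values of the 16 tested member results, 286 left the call as it was, 14 lost it and 4 gained one. Of the values called in the main fit or in the alternative, 0 reversed direction. Values called in neither were counted as unchanged whatever their sign. Ppp1r15a for IL-1β against control, at -0.02 in the main fit, reached 0.000487 when 1 library was left out. The losses were those of Atf4 and Asns, and the gains those of Sesn2 and Ppp1r15a; the cause was not tested. Of the 8 tested members, 5 to 7 were called for IL-1β against control and 4 to 6 for co-culture against IL-1β when 1 library was left out. Calls over all tested genes then ran from 4804 to 5544 and from 1916 to 2482, beside 5479 and 2581. Without any one library the log2 change of Gdf15 lay between 1.46 and 1.70 with IL-1β and between -2.47 and -2.21 under co-culture against IL-1β.

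Same-numbered replicates did not deviate together (r of deviations between -0.0907 and 0.0855), so the numbers pair nothing that the data show. With the replicate block 6 and 6 of the 8 members were called, and over all genes 5201, 2266 and 3681 were called for IL-1β against control, co-culture against IL-1β and co-culture against control. Under a filter on mean FPKM of at least 5 Gdf15 itself was left out. Low levels limit Gdf15 outside the IL-1β group.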
